A study of Mus musculus with 9 samples.

Results

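EGCG (epigallocatechin gallate, a green tea catechin) was compared with no EGCG in MIN6 cells that overexpressed Nr4a1. The comparison takes 6 of the 9 libraries of the series: 3 from cells overexpressing Nr4a1 alone and 3 from cells that received EGCG on top of the overexpression. The members are the genes that reached at least 1 TPM, a transcript level scaled by length and by the library's total, in at least 3 of these 6 libraries, 11670 of the 52408 genes to which the deposited transcript identifiers could be joined. MIN6 is a mouse insulinoma line that secretes insulin and stands in for pancreatic beta cells. Both groups are of the same line and carry the label batch 1. That the EGCG cells also overexpressed Nr4a1 comes from the series' design text, since their sample labels name EGCG only, and the Nr4a1 level measured in them is given below. The remaining 3 libraries, from untransfected MIN6 cells, are the series' control. Their levels are given as background, and no test compares them with either group. They enter the fit in only 1 of the alternative settings, which took all 9 libraries. The dose and duration of EGCG, the vector and the way cells were transfected are unknown from the sources used here. No label tells whether the triplicates came from separate cultures, and every p-value measures the spread between these libraries, which may be technical.

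Nr4a1 encodes an orphan nuclear receptor of the NR4A family, an immediate early gene in many tissues that binds DNA as a monomer or dimer without a known natural ligand. In beta cells NR4A receptors have been tied to proliferation, mitochondrial metabolism and stress responses. EGCG is a polyphenol that oxidises readily in culture medium, binds many proteins and chelates iron. Iron is a cofactor of the prolyl hydroxylases that, with oxygen, mark hypoxia-inducible factor (HIF) subunits for degradation through the VHL ubiquitin ligase. When the HIF alpha subunits persist they pair with ARNT and bind the hypoxia response core ACGTG near genes of glycolysis, glucose transport and mitophagy.

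Of the 15 listed beta cell markers, 14 were at 1 TPM or more in every overexpression library and all 15 in every EGCG library; the exception was Slc2a2. Their levels summed to 27453.3 to 27872.7 TPM with overexpression, 21849.8 to 23056.8 TPM with EGCG and 20208.6 to 22252.3 TPM in control. The listed markers of acinar cells summed to 3.87 to 4.84 TPM with overexpression and 4.75 to 5.15 TPM with EGCG, nearly all of it Cela1, and 5 of the 10 were at 0 in all 6 libraries. Fibroblast, endothelial and immune markers summed to under 1 TPM in every one of the 6 libraries. Of 6 ductal markers 3 were at 0 in all 6 libraries, and the sum of 70.1 to 74.6 TPM with overexpression and 30.5 to 30.9 TPM with EGCG was almost wholly Spp1, a secreted phosphoprotein described with the cytokines. In bulk RNA, fewer cells of a type and less RNA per cell cannot be told apart.

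With EGCG 6722 of the 11670 genes changed (57.6%), 2306 higher (19.8%) and 4416 lower (37.8%), by limma on log2(TPM + 1) with a Benjamini-Hochberg adjusted p under 0.05. By at least 2-fold, 195 genes rose (1.67%) and 178 fell (1.53%). In 7594 genes (65.1%) the 3 EGCG libraries lay entirely above or entirely below the 3 overexpression libraries. Requiring a change of at least 1.2-fold left 842 genes higher and 1537 lower, so most of the calls are of changes not shown to exceed that size. Adding 1 to each TPM value understates the change of genes at low levels. Of the genes tested, 241 were under 1 TPM in all 3 overexpression libraries and passed the filter only through the EGCG libraries, and 237 of them were called higher. Another 127 passed only through overexpression, of which 125 were called lower. Such genes could hardly be tested without a difference, and their calls are a description, as is any separation of their groups. On the gene lists below, those that passed through EGCG are Ak4, Adm, Mgarp, P4ha2, Slc2a2, Psmb9, Fgf21, Zfp36, Foxo1, Nr1d1, Ocln and Espn, and those that passed through overexpression are Elovl6, Dusp4, Isg15, Sik1 and Cxcl10, of which Sik1 was not called. How the calls split by direction depended on scaling. Every difference below is in log2(TPM + 1), EGCG minus overexpression. The median difference of all genes was -0.10 on the log2 scale of the deposited TPM, and 0.00 after median-ratio scaling, which gave 3281 genes higher and 3257 lower. Quantile normalization gave 3051 higher and 3368 lower, with a median of -0.02, and rescaling to the sum of nuclear protein-coding genes 3587 higher and 2861 lower, with a median of 0.03. Medians of gene lists are therefore best read against -0.10, the median of all genes on the deposited scale, and their counts against 19.8% higher and 37.8% lower. The lists of cholesterol, p53, autophagy and lysosome, beta cell transcription factor and prohormone processing genes had shares near these in both directions. Where another scaling moved the balance of higher and lower calls of a list, its counts are given as well.

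**Figure D1:**
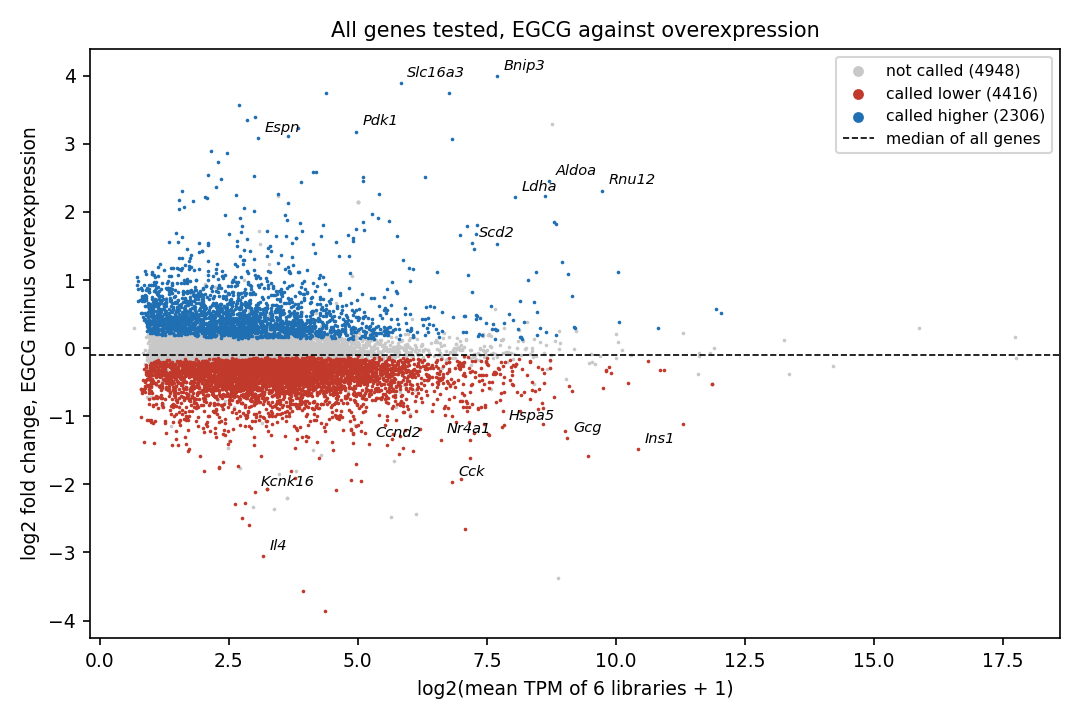
Difference in log2(TPM + 1) between EGCG and overexpression (vertical axis) against log2 of the mean TPM of the 6 libraries plus 1 (horizontal axis) for each of the 11670 genes tested. Blue points were called higher, red points lower and grey points neither; the dashed line is the median of all genes at -0.10, and the tail of blue points above 2 holds Bnip3, Slc16a3, Pdk1, Espn, Aldoa and Ldha.

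The libraries of the 2 groups also differed in their make-up. Nuclear protein-coding genes held 22.6% to 23.1% of the TPM with overexpression and 20.3% to 20.7% with EGCG, mitochondrial genes 7.31% to 7.79% and 8.55% to 9.42%. Small structured RNAs held 49.4% to 50.1% and 47.9% to 49.5%, and identifiers with no gene match 17.99% to 18.7% and 19.5% to 20.1%. The 1480 chemoreceptor genes, which act in sensory neurons and serve here as a gauge of background, summed to 4.23 to 4.72 TPM with overexpression and 7.86 to 11.8 TPM with EGCG. The part of these shifts in the changes of single genes was not tested. In control, chemoreceptor genes summed to 50.06 to 107.8 TPM, mitochondrial genes held 10.84% to 12.01% and small structured RNAs 43.57% to 45.15%. Control thus lay outside both groups on these measures, and levels set beside control are to be read with that limit. Sequencing depth cannot be read from TPM and is unknown for all libraries.

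Nr4a1 itself was at 128, 123 and 165 TPM in the overexpression libraries and at 46.2, 60.9 and 54.5 TPM with EGCG. The groups did not overlap, and the control libraries held 0.63, 0.78 and 0.76 TPM. The log2 difference was -1.34 ± 0.135 (SE) with limma, at a Benjamini-Hochberg adjusted p of 1.86e-04, and 1 transcript, Nr4a1-201, was the only Nr4a1 transcript that passed the filter. EGCG and a lower Nr4a1 level went together in all 3 EGCG libraries, so what follows cannot be told apart into an action of EGCG and a result of less Nr4a1. Of the other NR4A receptors, Nr4a2 and Nr4a3, neither reached the filter.

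The strongest rises were in genes known to be induced by hypoxia. Upstream sequences were searched for the hypoxia core and for an NR4A site. In the RefSeq promoter table of GRCm38.p6, the 250 bases upstream of the start held the hypoxia core ACGTG on either strand in 16.6% of 32851 promoters of all genes and in 22.1% of 11136 promoters of the genes tested. The share was 34.4% of 192 promoters of genes called higher by at least 2-fold and 23.6% of 144 promoters of genes called lower by at least 2-fold. It was 55.2% of 29 promoters of the hypoxia-inducible genes outside glycolysis and 33.3% of 33 promoters of glycolysis genes. By gene, 9 of 22 glycolysis genes held the core. The hypoxia list holds genes already known to be induced by hypoxia, and what raised them here was not tested. Since cores overlap with their own complement, CACGTG counts once on each strand. The NR4A monomer site AAAGGTCA, on either strand, was in 1.34% of all promoters and in 0.772% of those of the genes tested. It was in 3 of the 192 (1.56%), in 0 of the 144, in 0 of the 29 and in 2 of the 33 promoters of glycolysis genes (6.06%). A match of letters is a description and not a binding site.

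The 6 sequences below were chosen to show the core in front of genes that moved far: 5 genes that rose, and Cck, the only gene of the 15 lowest with a core among the 10 that have a promoter in the table. Each is the 250 bases upstream of the start, 5′ to 3′ on the gene's strand, with the core in capitals.
Bnip3, chr7:138909507-138909756 on the minus strand: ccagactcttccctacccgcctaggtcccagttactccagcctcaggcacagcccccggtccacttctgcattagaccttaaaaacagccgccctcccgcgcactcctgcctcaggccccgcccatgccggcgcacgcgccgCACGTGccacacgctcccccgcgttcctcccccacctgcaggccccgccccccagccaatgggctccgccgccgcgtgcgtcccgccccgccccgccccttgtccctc
Slc16a3, chr11:120948817-120949066 on the plus strand: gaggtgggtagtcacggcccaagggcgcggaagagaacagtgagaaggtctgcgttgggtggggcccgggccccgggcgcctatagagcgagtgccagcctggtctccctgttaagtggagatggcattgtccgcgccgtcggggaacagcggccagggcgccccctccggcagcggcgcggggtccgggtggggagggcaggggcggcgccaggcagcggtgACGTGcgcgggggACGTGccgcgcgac
Fam162a, chr16:36071562-36071811 on the minus strand: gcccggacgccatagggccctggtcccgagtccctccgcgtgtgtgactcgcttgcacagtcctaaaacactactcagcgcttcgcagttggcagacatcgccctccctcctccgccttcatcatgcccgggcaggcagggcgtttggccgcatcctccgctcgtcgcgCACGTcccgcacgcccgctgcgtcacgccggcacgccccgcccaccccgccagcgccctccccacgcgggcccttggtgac
Slc2a1, chr4:119108495-119108744 on the plus strand: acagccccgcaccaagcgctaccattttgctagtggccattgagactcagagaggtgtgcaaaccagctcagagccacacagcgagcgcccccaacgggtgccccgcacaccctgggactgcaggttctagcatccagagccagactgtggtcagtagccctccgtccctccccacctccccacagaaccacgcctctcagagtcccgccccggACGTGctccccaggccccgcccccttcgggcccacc
Ldha, chr7:46845554-46845803 on the plus strand: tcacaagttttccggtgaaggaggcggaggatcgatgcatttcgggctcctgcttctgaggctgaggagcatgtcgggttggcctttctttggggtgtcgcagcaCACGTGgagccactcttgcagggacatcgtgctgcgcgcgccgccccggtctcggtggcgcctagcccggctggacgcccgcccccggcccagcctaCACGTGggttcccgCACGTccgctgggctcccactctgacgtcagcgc
Cck, chr9:121495695-121495944 on the minus strand: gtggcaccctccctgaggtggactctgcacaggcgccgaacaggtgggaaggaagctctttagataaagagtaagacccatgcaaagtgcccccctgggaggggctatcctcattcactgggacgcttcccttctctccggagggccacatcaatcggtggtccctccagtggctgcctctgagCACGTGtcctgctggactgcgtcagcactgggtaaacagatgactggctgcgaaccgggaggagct
Counted from the start, the core of Bnip3 began 108 bases upstream, that of Fam162a 81, that of Slc2a1 36 and the pair of Slc16a3 27 and 14 bases upstream. Ldha had 5 matches between 145 and 34 bases upstream, 4 of them from 2 palindromes. Among the 15 highest genes 12 have a listed promoter, of which 9 held the core, and Aldoc, Espn and Pdk1 did not in these windows. Over all genes tested with a listed promoter, 2258 of 8687 held the core in any of their promoters. The counts were 58 of 131 genes called higher by at least 2-fold and 28 of 112 called lower by at least 2-fold.

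Of 32 listed hypoxia-inducible genes outside glycolysis 25 passed the filter, of which 22 rose and 0 fell, against 19.8% higher and 37.8% lower among all genes, and their median log2 difference was 1.96 against -0.10. Of these, Ak4, Adm, Mgarp and P4ha2 passed only through the EGCG libraries, where they were high, and of the other 21 members 18 rose. Bnip3, a receptor of mitophagy in the outer mitochondrial membrane, was at 30.6, 30.4 and 13.8 TPM with overexpression and at 410.3, 375 and 383 TPM with EGCG. Every EGCG library lay above every overexpression library, and among the latter replicate 3 was the lowest. The rise was 3.996 ± 0.274 (SE), with a Benjamini-Hochberg adjusted p of 4.27e-05 in limma; the control libraries held 361, 364 and 376 TPM. Ankrd37, a small ankyrin repeat protein used as a marker of HIF activity, went from 2.19, 1.7 and 1.47 to 25.5, 22.9 and 26.8 TPM. Fam162a, a mitochondrial protein, went from 26.4, 23.6 and 19.8 to 200.5, 201 and 201 TPM. In both genes the groups differed far more than the libraries within a group. Ak4, the adenylate kinase of the mitochondrial matrix, was at 0.42, 0.67 and 0.11 TPM and at 14.4, 12.3 and 14.1 TPM, and Mgarp, which takes part in mitochondrial transport, at 0.32, 0.4 and 0.17 TPM and at 12.8, 12.3 and 11.5 TPM. The log2 differences of these 4 genes were between 3.06 and 3.40 (limma, Benjamini-Hochberg adjusted p = 3.41e-06 for both Ankrd37 and Fam162a).

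Secreted and signalling members of the list rose with them. Adm, which encodes the vasodilator peptide adrenomedullin, was at 0.33, 0.26 and 0.17 TPM and at 6.14, 5.89 and 6.9 TPM. Vegfa, the angiogenic growth factor, was at 31.1, 36.9 and 32.02 TPM with overexpression and 84.1, 74.9 and 89.5 TPM with EGCG, a rise of 1.29 ± 0.0866 (SE). Ndrg1, a stress-regulated gene of vesicle traffic, was at 10.3, 9.52 and 8.09 and 57.9, 53.8 and 61.3 TPM. All 3 were separated between the groups. Ddit4, an inhibitor of mTORC1 signalling, rose from 14.2, 14.4 and 13.4 to 45.2, 44.4 and 41.9 TPM, and in this gene the EGCG libraries were also above the control libraries at 29.5, 29.4 and 33.1 TPM. The 3 members that were not called were Plin2, a lipid droplet protein, at 5.68, 6.09 and 5.58 and 7.04, 5.91 and 5.24 TPM, the creatine transporter Slc6a8, and Pfkfb4, with differences of 0.05, 0.16 and -0.13. Slc6a8 was called higher with median-ratio scaling (by 0.24), with the other scalings and without the variance trend.

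**Figure D2:**
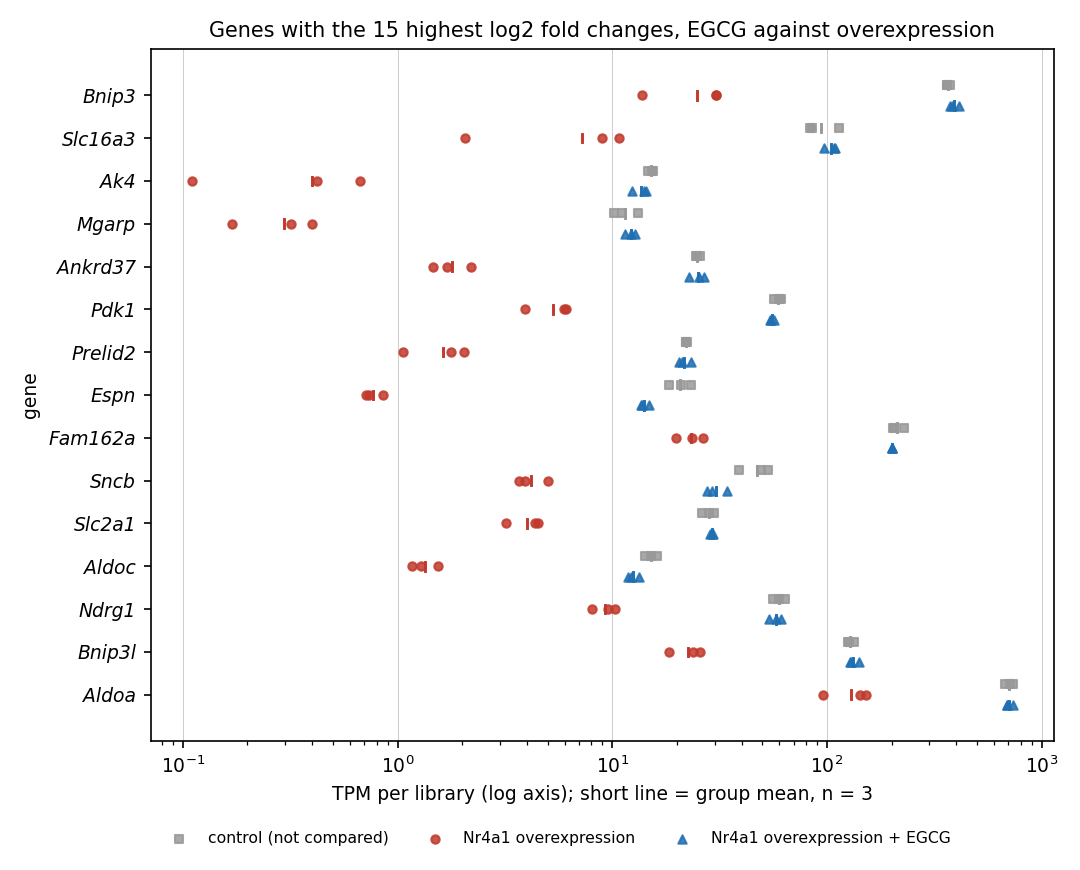
TPM in each library (horizontal log axis) of the 15 genes with the highest log2 differences among protein-coding genes averaging at least 5 TPM; points are libraries, short lines are means of 3 libraries, and control libraries are shown as background. Only genes without overlap between the groups were eligible, so in all 15 the EGCG libraries lie to the right of the overexpression libraries. Bnip3 had 375 to 410.3 against 13.8 to 30.6 TPM, and its control libraries held 361 to 376 TPM.

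The oxygen-sensing genes themselves moved less uniformly. Of 12 tested, 8 rose and 2 fell (median 0.45). Hif1a, which encodes the oxygen-regulated subunit, was at 16.4, 16.2 and 15.7 TPM with overexpression and at 15.3, 15.5 and 15.6 TPM with EGCG. The difference was -0.05 ± 0.0439 (SE) and was not called (limma, Benjamini-Hochberg adjusted p = 0.324). Vhl was not called either, at 7.79, 7.51 and 6.81 and 8.12, 7.52 and 7.79 TPM, but was called higher with median-ratio scaling (by 0.18) and when rescaled to nuclear protein-coding genes, while Arnt rose by 0.39. Among the hydroxylases, Egln1, the main prolyl hydroxylase acting on HIF, rose from 9.29, 9.03 and 8.58 to 20.01, 21.2 and 22.3 TPM. The collagen prolyl hydroxylases P4ha1 and P4ha2, the latter tested only through EGCG, rose by 1.65 and 2.49, and the histone demethylases Kdm3a and Kdm4b, which also need oxygen and iron, by 1.81 and 1.07. Hif1an, the asparaginyl hydroxylase of HIF, fell from 7.89, 6.6 and 7.61 to 4.06, 5.19 and 4.59 TPM and Egln2 fell by 0.30. Several of these genes, Egln1, Kdm3a, P4ha1 and P4ha2 among them, are also on the hypoxia-inducible list.

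Glycolysis genes rose with few exceptions. Of 23 tested genes 19 rose and 2 fell, and the median difference was 1.81. Slc2a1, the glucose transporter GLUT1, was at 4.53, 4.35 and 3.2 TPM with overexpression and at 29.5, 28.5 and 29.03 TPM with EGCG. Aldoa, the most abundant aldolase, was at 152, 143 and 95.4 and 689, 688 and 732 TPM. The groups were far apart in both, and replicate 3 of the overexpression group was again the lowest. The brain-type isoenzymes Aldoc and Eno2 rose by 2.53 ± 0.0778 and 2.45 ± 0.0747 (SE), the phosphofructokinase Pfkp, which commits sugar to glycolysis, by 1.81, phosphoglucomutase Pgm1 by 1.91 and the glycogen synthase Gys1 by 1.83. Ldhb, the lactate dehydrogenase subunit of oxidative tissues, fell from 9.8, 9.13 and 8.58 to 3.75, 4.64 and 2.66 TPM. Hk1 at 26.8, 24.3 and 24.98 and 22.3, 26.9 and 26.4 TPM and Gbe1, the glycogen branching enzyme, with a difference of -0.11, were not called. Slc2a2, the GLUT2 transporter typical of rodent beta cells, was low and passed the filter only through EGCG, going from 0.64, 0.81 and 0.49 to 2.99, 2.69 and 3.73 TPM, with 0.97, 1.42 and 0.82 TPM in control.

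Of 18 tested genes that set the fate of pyruvate, 9 rose and 6 fell (median 0.14), and 10 and 4 when rescaled to nuclear protein-coding genes. Pdk1, the kinase that switches off pyruvate dehydrogenase, was at 6.07, 5.94 and 3.93 TPM and at 56.6, 54.5 and 55.05 TPM. Ldha, which makes lactate, was at 106, 108 and 67.6 TPM and at 431, 437 and 425 TPM, and Slc16a3, the lactate exporter MCT4, at 8.94, 10.8 and 2.07 and 109, 108 and 97 TPM. In each of the 3 every EGCG library exceeded every overexpression library. The rises were 3.18 ± 0.132, 2.22 ± 0.168 and 3.89 ± 0.453 (SE) in that order, with limma's Benjamini-Hochberg adjusted p at 7.30e-06, 6.32e-05 and 3.49e-04. Replicate 3 of overexpression was the lowest library for all 3 genes. Subunits of the pyruvate dehydrogenase complex went the other way or moved little: Pdhb went from 46.3, 44.8 and 47.1 to 31.3, 32.7 and 33.9 TPM, Dld fell by 0.60, Pdhx fell by 0.26 and Dlat fell by 0.16, while Pdha1 rose by 0.19. Of the mitochondrial pyruvate carrier, Mpc2 fell by 0.56 and Mpc1 was not called at 115, 115 and 108 and 105, 108 and 108 TPM.

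The depth of the low state varied among the overexpression libraries. Replicate 3 was the lowest of the 3 in 20 of the 25 hypoxia-inducible genes (80%) and in 17 of the 23 glycolysis genes (73.9%), against 32.8% of all genes tested. Among the 195 genes called higher by at least 2-fold, replicate 3 was the lowest in 102 (52.3%). It was also the library with the most Nr4a1, 165 TPM against 128 and 123. With 3 libraries this is a description; its part in the results was not tested. Without this library, 22 of the hypoxia-inducible and 19 of the glycolysis genes were called higher, the same counts as with it.

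Mitophagy genes moved in both directions. Bnip3l, the paralog of Bnip3 also known as NIX, rose from 23.8, 25.6 and 18.4 to 127, 130.1 and 140.4 TPM, and Gabarapl1, an LC3-like protein of the autophagosome, from 23.2, 22.4 and 22.9 to 33.2, 34 and 35.7 TPM. Sqstm1, the cargo adaptor p62, fell from 179.98, 169 and 167 to 97.1, 95.5 and 107 TPM and Map1lc3b fell by 0.50. These 4 genes showed no overlap between groups. Of 13 tested, 4 rose and 3 fell, and 7 and 3 with median-ratio scaling. Fkbp8 and Fundc1, receptors like Bnip3, were not called with differences of -0.03 and 0.11. Fundc1 was called higher with median-ratio scaling (by 0.21) and with the other scalings, and Fkbp8 with quantile normalization (by 0.17).

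Several of the other strong rises were in genes of cell shape and adhesion. Espn, an actin-bundling protein, was at 0.74, 0.71 and 0.86 TPM with overexpression and at 13.6, 13.8 and 14.8 TPM with EGCG, with control at 23.2, 20.8 and 18.3 TPM. The difference was 3.09 ± 0.0621 (SE); Espn passed the filter only through the EGCG libraries, so that it had to differ. Cdh1, the epithelial cadherin, rose from 2.58, 1.89 and 1.95 to 8.41, 9.23 and 10 TPM, Epcam, an epithelial adhesion molecule, from 6.37, 5.41 and 5.47 to 17.7, 18.7 and 19.9 TPM, and the desmosomal plaque protein Dsp from 2.16, 1.59 and 1.59 to 8.75, 9.31 and 10.3 TPM. In all 4 genes the groups were well separated. The integrin Itga6 rose by 1.03, while Gjd2, the connexin-36 gene whose gap junctions couple beta cells, fell from 15.6, 15.9 and 15.2 to 6.74, 7.41 and 6.49 TPM. Of 15 tested adhesion genes 7 rose, 3 fell and the median was 0.06. Espn and Ocln passed only through EGCG, and of the other 13 genes 5 rose and 3 fell. Itgb1 and Krt8 were not called, with differences of -0.12 and -0.16. The remaining genes of the 15 highest were Sncb, beta-synuclein, at 5.01, 3.93 and 3.68 and 27.5, 29.03 and 34.3 TPM, and Prelid2, a protein of the PRELI family, at 1.77, 2.05 and 1.06 and 20.4, 21.04 and 23.2 TPM.

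Lipid synthesis moved in both directions. Scd2 and Scd1, which desaturate stearate, rose: Scd2 was at 73.5, 74.2 and 77.2 TPM with overexpression and at 214, 217 and 230.5 TPM with EGCG, and Scd1 at 15.6, 15.2 and 14 and 38.7, 41.4 and 38.6 TPM. Every EGCG library lay above every overexpression library for both. Me1, which supplies NADPH, rose by 0.69 and Srebf1, the transcription factor of fatty acid synthesis, by 0.48. The elongase Elovl6 fell from 1.65, 1.79 and 1.73 to 0.71, 0.49 and 0.42 TPM and Elovl1 fell by 0.43. Of 20 tested genes 9 rose and 4 fell (median 0.13), and 11 and 2 with median-ratio scaling. The desaturases Fads1 and Fads2 were not called, Fads2 with a difference of 0.11 that was called with median-ratio scaling (0.22) and the other scalings. Of 26 genes around cholesterol 5 rose and 8 fell, and 8 and 7 with median-ratio scaling, with a median of -0.10 that became 0.03 when values were rescaled to nuclear protein-coding genes. The genes that rose included the sterol carrier Stard4, from 5.65, 5.27 and 5.24 to 11.4, 9.67 and 11.4 TPM. Enzymes of synthesis fell: Cyp51 from 18.6, 18.6 and 19.4 to 10.5, 10.7 and 10.7 TPM, Acat2 fell by 0.72, Mvd fell by 0.66 and Idi1 fell by 0.65. Fdps, which makes farnesyl diphosphate, was not called at 29.7, 29.2 and 31.9 and 28.9, 27.8 and 22.9 TPM.

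Genes of oxidative metabolism were lower more often than higher on the deposited scale, by small steps, and their counts depended on the scaling. Of 26 tested genes of the TCA cycle and the shuttles 19 fell and 4 rose, with a median of -0.28. With median-ratio scaling 13 fell and 5 rose. Quantile normalization left 10 lower and 6 higher, and a minimum of 1.2-fold 7 and 1. Idh3a and Idh3g, subunits of the NAD-dependent isocitrate dehydrogenase, were at 46.3, 43.4 and 45.95 and 35.4, 34.9 and 36.8 TPM with overexpression and at 26.1, 29.8 and 26.7 and 23.1, 21.1 and 22.01 TPM with EGCG, without overlap. Sucla2 fell by 0.51, and Got1 and Gpd1, cytosolic enzymes of the malate-aspartate and glycerol phosphate shuttles, fell, with differences of -0.53 and -0.64. The citrate carrier Slc25a1 rose from 13.1, 10.3 and 11.2 to 23.3, 25.1 and 25.3 TPM. Got2 and Sdhc were not called, with differences of -0.04 and -0.21.

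In the respiratory chain, 25 of 36 complex I subunits fell and 3 rose (median -0.20, and -0.09 with median-ratio scaling, where 13 fell and 5 rose). With quantile normalization 7 fell and 8 rose, and with a minimum of 1.2-fold 4 fell and 1 rose. Ndufa9 went from 37.01, 36.97 and 35.7 to 22.6, 23.5 and 21.2 TPM. Ndufa12, Ndufs6 and Ndufv3 were the 3 that rose, with Ndufv3 at 104, 105 and 109 and 182, 182 and 198 TPM and all its EGCG libraries higher. Of 25 genes of complexes II to IV 14 fell and 2 rose (median -0.25), against 9 and 3 with quantile normalization and 6 and 0 with a minimum of 1.2-fold. Ndufa4, a subunit now placed in complex IV, fell from 133, 130 and 142 to 67.9, 72.5 and 63.1 TPM and Cox4i1 from 338, 326 and 325 to 209, 221 and 205 TPM. Cox8a and Uqcrb, among the most abundant, were not called. Of 16 ATP synthase genes 10 fell and 1, the inhibitor Atpif1, rose (median -0.22), against 6 and 3 with quantile normalization and 7 and 1 with median-ratio scaling. Atp5g1, which encodes the c subunit of the rotor, was at 188, 193 and 192 TPM and at 93, 96.3 and 79.98 TPM, a difference of -1.09 ± 0.0732 (SE), while Atp5g2, which encodes the same mature subunit, was at 124, 127 and 133 and 131, 128 and 123 TPM and was not called, but was called higher with quantile normalization (by 0.19) and when rescaled (by 0.14).

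The genes of the mitochondrial genome did not move as a block. Of 13, 1 rose and 5 fell, and the median was -0.07 on the deposited scale and 0.05 with median-ratio scaling, where 3 rose and 2 fell. With a minimum of 1.2-fold 1 rose and 0 fell. The gene mt-Co1, for a core subunit of complex IV, rose from 3145, 3154 and 3099.5 to 4440.2, 4411 and 5116 TPM, and mt-Cytb fell from 1129, 999 and 979 to 581, 746 and 749 TPM. Neither gene overlapped between groups, and control was higher than either group in mt-Co1 at 6695, 6888 and 6014 TPM. Without a filter on low values the adjusted p of mt-Co1 rose from 0.00157 to 0.0732 (limma, Benjamini-Hochberg). The complex I gene mt-Nd4l fell by 0.87 although its groups overlapped, and its adjusted p of 0.0393 (limma, Benjamini-Hochberg) reached 0.161 among the alternatives, passing 0.05 without overexpression replicate 1 or 3 or EGCG replicate 1 or 3. Of 58 mitochondrial ribosomal proteins 38 fell and 4 rose (median -0.35), against 33 and 9 with median-ratio scaling and 11 and 0 with a minimum of 1.2-fold, with Mrps35 at 30.5, 29.3 and 26.5 and 14.3, 16.6 and 17.2 TPM. Of 20 genes of mitochondrial fatty acid oxidation 14 fell and 1, the isomerase Eci2, rose (median -0.37). Hadh, whose product also restrains insulin secretion through glutamate dehydrogenase, was at 27.1, 27.1 and 28.97 TPM and at 10.7, 12.5 and 11.1 TPM, a difference of -1.21 ± 0.0647 (SE). Etfb, which passes electrons from the oxidation to the chain, fell by 0.99 and the trifunctional subunit Hadhb fell by 0.60.

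Most cell cycle genes were lower with EGCG. Of 38 DNA replication genes 33 fell and 1, Pold1, rose (median -0.41). Of 33 genes of mitosis and the spindle 30 fell and 1, Aurkb, rose (median -0.47). Tyms, which makes thymidylate, was at 62.4, 61.4 and 64.9 TPM and at 28.2, 31.1 and 29.9 TPM, and Cdc20, the activator of the anaphase-promoting complex, at 43.1, 40.04 and 43.2 and 19.1, 20.1 and 16.4 TPM. In neither gene did the groups overlap. The helicase subunits Mcm5 and Mcm2 fell, with differences of -0.77 and -0.63, the licensing factor Cdt1 fell by 0.99 and ribonucleotide reductase Rrm2 fell by 0.98. Among mitotic genes the ubiquitin-conjugating enzyme Ube2c fell by 0.93, the cyclins Ccna2 and Ccnb1 fell, with differences of -0.76 and -0.72 and the motor Kif11 fell by 0.53. Lig1 and Pold2 and Nusap1 and Cenpf, on the same lists, were not called. Among G1 regulators, Ccnd2, the D cyclin of beta cell growth, went from 52.8, 49.9 and 56.1 to 18.3, 19.7 and 20.3 TPM, a difference of -1.40 ± 0.0618 (SE), and Ccnd3 rose by 0.61. The CDK inhibitor Cdkn1a, p21, rose from 17.1, 13.6 and 13.6 to 22.03, 22.9 and 23.96 TPM, while Cdkn1b, p27, fell from 40.6, 39.6 and 41.3 to 27.6, 29.03 and 28.8 TPM and Cdkn2c fell by 0.60. Of these 16 regulators 2 rose and 7 fell, and 4 rose and 4 fell with median-ratio scaling.

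Genes that build ribosomes and charge tRNAs were mostly lower. Of 39 ribosome biogenesis genes 31 fell and 2 rose (median -0.40). Nop58, a core protein of box C/D snoRNPs, went from 93.7, 92.5 and 88.9 to 51.5, 56.3 and 56.6 TPM and Ubtf, which activates rRNA genes, from 25.1, 23.8 and 22.8 to 12.4, 13 and 13.98 TPM. Rrp9, Rrp12 and Tsr1, processing factors of the small subunit, fell, with differences of -0.85, -0.70 and -0.90, and Npm1 and Pes1 were not called. Of 20 aminoacyl-tRNA synthetases 14 fell and 1, Dars, rose (median -0.30), against 9 and 2 with quantile normalization, with Nars at 71.8, 69.9 and 70.6 and 41.6, 45.8 and 43.02 TPM. The 77 cytosolic ribosomal proteins split evenly on the deposited scale, 19 higher and 19 lower, and 34 against 9 with median-ratio scaling, so that their direction relative to other genes depends on the scale. Rps23 rose from 259, 259.7 and 266 to 415, 402 and 436 TPM, whereas Rpl10a fell from 198, 204 and 205 to 156, 152 and 155 TPM, and Rpl13a, at 599, 565 and 588 and 591, 574 and 565 TPM, was not called. Ribosomal protein genes have many near-identical pseudogenes, so their values are uncertain to that extent.

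Most folding genes of the secretory pathway were lower. Of 32 ER chaperones and genes of the unfolded protein response 23 fell and 1, the stress sensor Ern1, rose (median -0.45), against 21 and 4 with median-ratio scaling. Hspa5, the ER chaperone BiP, was at 331, 302 and 283 TPM with overexpression and at 133, 144 and 133 TPM with EGCG. All 3 EGCG libraries were below all overexpression libraries, a difference of -1.15 ± 0.07 (SE; limma, Benjamini-Hochberg adjusted p = 2.65e-05). Its co-chaperones Dnajc3 and Dnajb11 fell, with differences of -1.14 and -1.02, the transcription factor Xbp1 fell by 0.75 and the secreted survival factor Manf fell by 0.74. Among genes of disulfide formation, Ero1lb, the beta cell oxidase, was at 285, 259.5 and 251 and 278, 281 and 298 TPM. P4hb was at 132, 114 and 113 and 111, 118 and 116 TPM. Neither was called, though Ero1lb was called higher with median-ratio scaling (by 0.22) and when rescaled. The isomerase Pdia3 was called lower, with a difference of -0.26, a call lost with quantile normalization and when rescaled. Of 30 genes of the translocon, signal peptidase and oligosaccharyltransferase 25 fell and 0 rose (median -0.31), among them the channel Sec61a1 from 62.1, 58.5 and 59.04 to 33.6, 36.1 and 32.4 TPM and Sec11c, a signal peptidase subunit, with a difference of -0.82. Srp54a and Srpr were not called.

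Of 36 proteasome subunits 35 fell and 0 rose (median -0.36). With median-ratio scaling 29 fell, with quantile normalization 20 and with a minimum of 1.2-fold 16. The ATPase Psmc5 went from 45.9, 44.03 and 44.3 to 21.96, 25.6 and 22.4 TPM and Psmc4 from 64.6, 64.04 and 64.3 to 41.8, 41.5 and 40.2 TPM; the core subunit Psma2, at 28.1, 29.5 and 28.6 and 28.3, 29.03 and 29.4 TPM, was the single one not called, and was called higher with quantile normalization (by 0.19) and when rescaled. The interferon-inducible subunit Psmb9 rose from 0.89, 0.71 and 0.85 to 2.52, 2.17 and 2.03 TPM and Psmb10 fell from 7.21, 8.99 and 7.73 to 4.6, 3.67 and 2.81 TPM. Of 10 genes of the immunoproteasome and MHC class I 3 rose and 2 fell, 5 and 2 with median-ratio scaling, and H2-K1 and B2m were not called. Of 23 cytosolic and mitochondrial heat shock chaperones 19 fell and 1, the factor Hsf1, rose (median -0.34). Hspa8, the constitutive HSC70, was at 522, 445 and 441 TPM and at 241, 252 and 263 TPM, and Cct3, of the TRiC chaperonin, at 85.97, 80.6 and 88.7 and 43.1, 47.4 and 36.8 TPM.

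**Figure D3:**
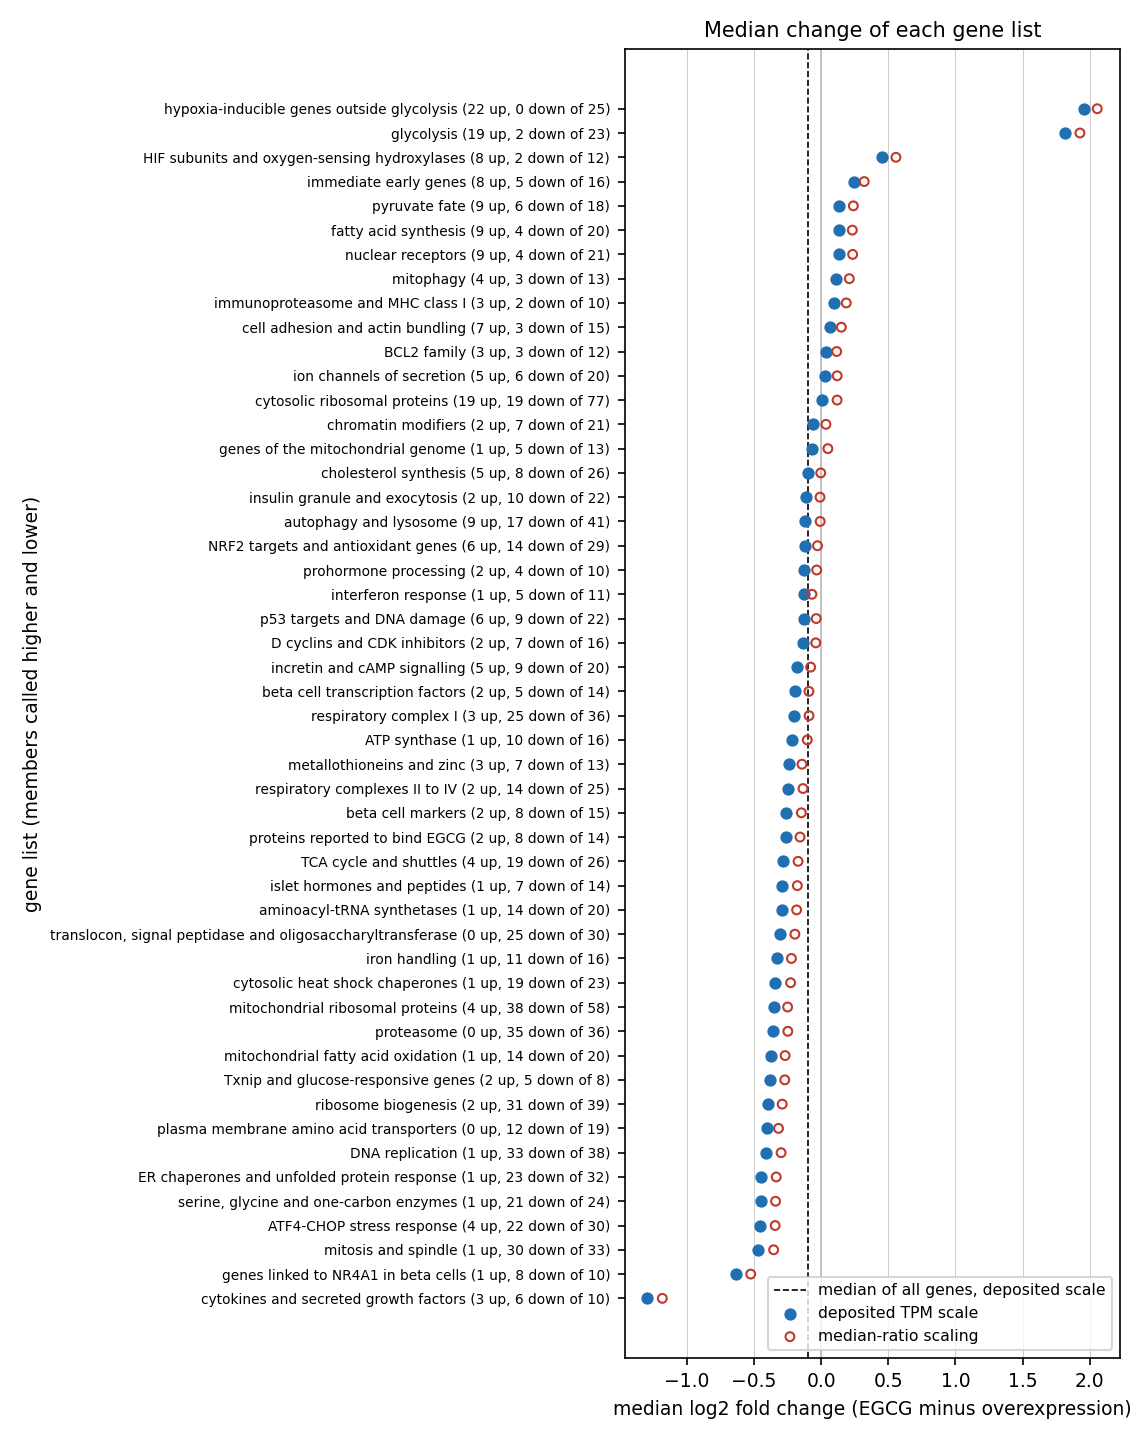
Median log2 difference (horizontal axis, EGCG minus overexpression) of each gene list with at least 8 tested members, on the deposited TPM scale (filled) and with median-ratio scaling (open); the labels give how many members were called higher and lower. Hypoxia-inducible genes and glycolysis stand at the top with medians of 1.96 and 1.81, the other lists lie between -1.30 and 0.45, and the dashed line marks the median of all genes at -0.10.

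Genes of the ATF4-CHOP stress response were mostly lower, 22 of 30 with 4 higher (median -0.46). The 4 that rose were Ddit4, which is also induced by hypoxia, Vldlr, Fgf21 and Eif4ebp1. Slc7a3, a cationic amino acid transporter, fell from 6.87, 7.34 and 7.1 to 2.25, 2.27 and 1.65 TPM, while Ddit3, which encodes CHOP, had a difference of -0.06 and was not called; Trib3 and Nupr1, with -0.13 and -0.10, were not called either. Most genes of amino acid supply were lower too, but these lists share members. Slc3a2 and Slc7a5 are on both the ATF4-CHOP and the transporter list, Phgdh and Psph on both the ATF4-CHOP and the serine list. Of 19 amino acid transporters of the plasma membrane 12 fell and 0 rose (median -0.40). Slc7a5 and Slc3a2, the 2 chains of the large neutral amino acid exchanger, were at 77.6, 80.1 and 77.9 and 133, 131 and 129.8 TPM with overexpression and at 29.6, 36.6 and 28.7 and 70.6, 74.2 and 73.03 TPM with EGCG. The glutamine transporter Slc38a5 fell by 0.93 and Slc38a2 fell by 0.60; Slc1a4 and Slc43a2 were not called. Of 24 genes of serine, glycine and one-carbon metabolism 21 fell and 1, Mthfd1l, rose (median -0.45). Gcsh, the lipoyl carrier of the glycine cleavage system, went from 48.7, 43.9 and 47.2 to 13.3, 14.5 and 13.1 TPM, a difference of -1.70 ± 0.0597 (SE), without overlap. Phgdh and Psph, the first and last enzymes of serine synthesis, fell, with differences of -0.92 and -1.13, Mat2a, which makes S-adenosylmethionine, fell by 0.90 and Cth, which makes cysteine, fell by 1.07.

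Redox genes showed no common rise. Of 29 NRF2 targets and antioxidant genes 6 rose and 14 fell, and 10 and 13 with median-ratio scaling, with a median of -0.12 that became 0.00 when rescaled to nuclear protein-coding genes. NRF2 is the transcription factor activated by electrophiles, and polyphenols are often studied as its inducers. Its targets Txnrd1, Gclm and Srxn1, named for their small adjusted p, fell. Txnrd1 was at 35.7, 33.3 and 35.8 and 19.2, 21.8 and 19.98 TPM. Gclm was at 28.1, 28.4 and 25.8 and 15.8, 16.3 and 17.6 TPM. Srxn1 was at 14.7, 14.98 and 15.1 and 8.56, 10.03 and 8.71 TPM. All 3 had lower values in every EGCG library. Hmox1, haem oxygenase and also a target, fell from 18.8, 18.8 and 19.97 to 12.3, 14.04 and 13.6 TPM. Gpx4, which removes lipid peroxides, rose from 69, 68.7 and 67.2 to 93.1, 92.8 and 94.9 TPM, and Sod1 and Prdx4 were not called. Of the 6 genes that rose, Gpx4 is the only one that the rule named from this list. Of 16 iron genes 11 fell and 1, Fbxl5, rose (median -0.33). Tfrc, the transferrin receptor whose mRNA is kept when iron is low, went from 31.9, 33.1 and 34.6 to 21.8, 21.9 and 21.9 TPM, with control at 13.7, 13.7 and 14.98 TPM. Fbxl5, the iron-sensing ubiquitin ligase, rose from 11.3, 12.2 and 11.02 to 14.8, 14.6 and 15.6 TPM, the iron-sulfur scaffold Iscu fell by 0.59, and Slc11a2, an iron importer, was not called.

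Metallothioneins bind zinc and copper. Mt1 and Mt2 rose and Mt3 fell. Mt1 went from 274, 298 and 292 to 397, 422 and 434 TPM and Mt3 from 63.6, 66.4 and 74.7 to 38.5, 41.4 and 34.5 TPM. Slc39a7, which releases zinc from the ER, fell from 42.8, 44.8 and 44.9 to 20.2, 21.6 and 19.02 TPM, and Slc30a8, the zinc transporter of the insulin granule, from 52.7, 51.6 and 49.9 to 41.1, 41.7 and 40.2 TPM, a call lost with quantile normalization. Of 13 genes 3 rose and 7 fell, and 5 and 6 with median-ratio scaling. Of 8 glucose-responsive genes 5 fell and 2 rose. Txnip, which inhibits thioredoxin and is induced by glucose in beta cells, was at 16.4, 15.7 and 17.3 TPM and at 11.9, 10.9 and 13.5 TPM. Its close relative Arrdc4 fell by 0.56, and Pklr, the liver-type pyruvate kinase, rose by 0.58.

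Immediate early genes, the class to which endogenous Nr4a1 belongs, had 8 of 16 higher and 5 lower (median 0.24), and 9 and 2 with median-ratio scaling. Ier3, an early response gene that limits cell death, was at 3.61, 3.38 and 3.18 TPM and at 13.6, 12.01 and 14.9 TPM, and Dusp1, a phosphatase of MAP kinases, at 4.01, 4.51 and 4.62 and 10.4, 8.76 and 10.8 TPM. The groups were apart for both. Klf6 rose by 0.86, Fosl2 by 0.73 and Jun by 0.53, Dusp5 fell by 0.62, and Fos and Ier2 were not called at under 3 TPM in each of the 6 libraries. Of 22 p53 targets and damage genes 6 rose and 9 fell, near the 19.8% and 37.8% of all genes. Trp53 itself fell from 16.7, 16.9 and 16.8 to 11.9, 12.01 and 11.7 TPM, Aen fell by 0.64 and Sesn2 fell by 0.79, while Polk, a translesion polymerase, rose by 0.98. In the BCL2 family 3 of 12 tested genes rose and 3 fell, and 4 and 2 with median-ratio scaling. The BH3-only genes Bbc3, Bcl2l11 and Bmf, whose products promote apoptosis, rose by 0.59, 0.49 and 0.67, and Mcl1 and Bcl2l2, which protect from it, fell, with differences of -0.46 and -0.34. Bax, whose product promotes apoptosis, was the other gene that fell, from 33.8, 32.7 and 33.7 to 25.6, 29.9 and 27.99 TPM, a call lost with each of the 3 other scalings. Bcl2l11 was at 3.66, 3.53 and 3.69 TPM and at 5.83, 5.11 and 5.51 TPM, and Bcl2l1 and Bad were not called, though both were called higher with quantile normalization (by 0.21 and 0.28). Of 11 tested interferon response genes 1, Irf1, rose and 5 fell, and 2 and 5 with median-ratio scaling. Ifi27 fell from 83.98, 85.1 and 80.5 to 38.3, 37.4 and 31.6 TPM. Of 41 autophagy and lysosome genes 9 rose and 17 fell, and 14 and 12 with median-ratio scaling; the median of -0.12 turned to 0.06 with quantile normalization and to 0.03 when rescaled to nuclear protein-coding genes. Ctsd, a lysosomal protease, was not called at 53.8, 50.9 and 53.3 and 54.3, 51.4 and 51.8 TPM, but was called higher with quantile normalization (by 0.21) and when rescaled (by 0.14).

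Of the 15 beta cell markers 2 rose and 8 fell, 3 of them by at least 2-fold (median -0.26). Ins1, the less abundant of the mouse insulin genes, was at 1952, 2074 and 2064 TPM with overexpression and at 708, 744 and 721 TPM with EGCG, with control at 739, 786 and 829 TPM. The difference was -1.49 ± 0.0627 (SE), with a Benjamini-Hochberg adjusted p of 7.30e-06 in limma. Ins2, which held most of the insulin transcript, was at 20518, 20424 and 20964 TPM and at 16732, 17188 and 17665 TPM. Its groups did not overlap, but the difference of -0.26 ± 0.124 (SE) was not called (limma, Benjamini-Hochberg adjusted p = 0.104). Ins2 was called lower without the variance trend, with a filter at 5 TPM and without EGCG replicate 3 (difference -0.28). Gcg, which encodes glucagon, was at 744, 727 and 808 and 290, 324 and 299.6 TPM. Cck, which encodes cholecystokinin, was at 167, 171 and 199 and 40.2, 52.6 and 42.7 TPM, below the control libraries at 61.8, 67.7 and 68.4 TPM. Both were lower in all 3 EGCG libraries. Iapp, the amylin gene co-secreted with insulin, was not called at 3476, 3193 and 3074 and 3011, 2776 and 3194 TPM. Ttr, the thyroid hormone carrier also made in islets, fell by 1.95 ± 0.0827 (SE) and the granin Scg3 fell by 0.64, while Scg5, the chaperone of the prohormone convertase PC2, rose from 82.4, 79.5 and 78.98 to 117, 111 and 123 TPM. Of 14 tested hormone and peptide genes 1 rose and 7 fell (median -0.29).

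**Figure D4:**
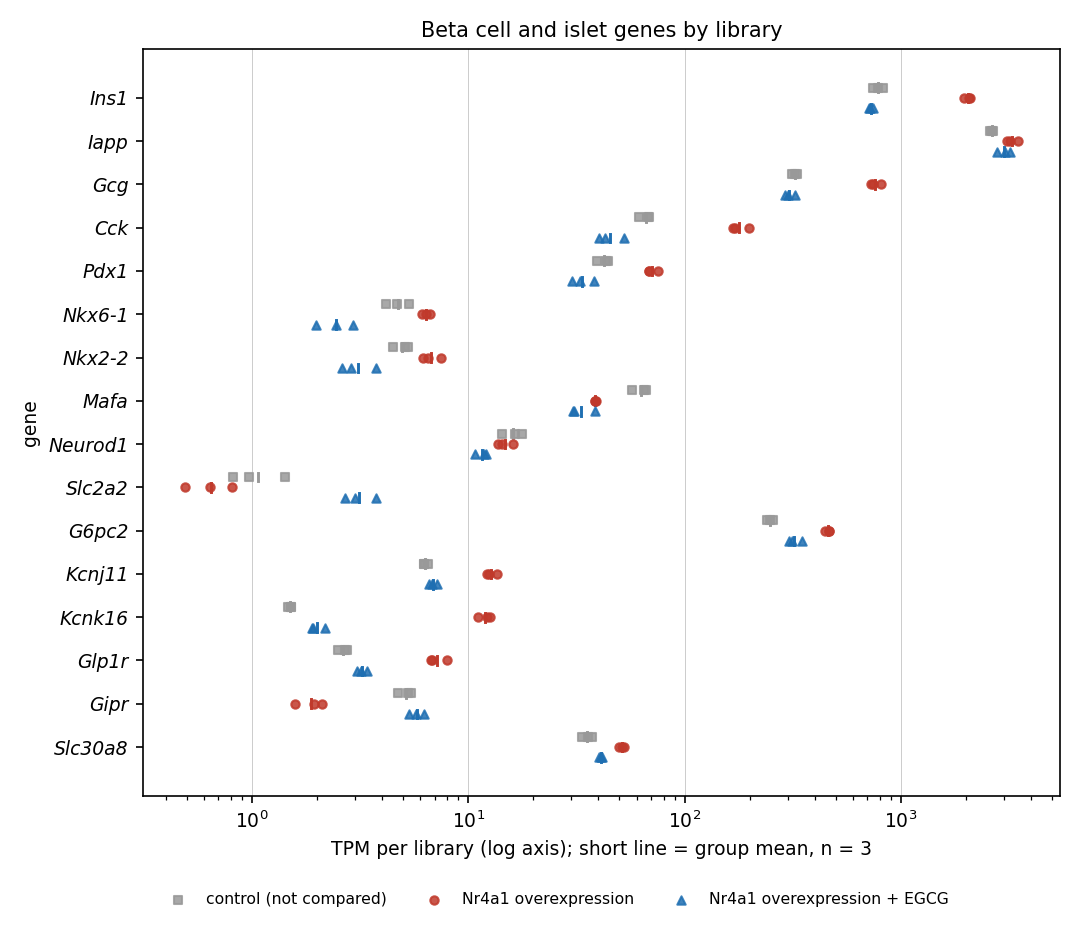
TPM in each library (horizontal log axis) of 16 beta cell and islet genes, with libraries as points and means of 3 libraries as short lines; control libraries are shown as background. Ins1, Gcg, Cck, Pdx1, Nkx6-1, Nkx2-2, Kcnj11, Kcnk16 and Glp1r lie lower with EGCG than with overexpression, as do Neurod1, G6pc2 and Slc30a8; Slc2a2 and Gipr lie higher, and Iapp and Mafa were not called.

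Of 14 tested beta cell transcription factors 2 rose and 5 fell, near the 19.8% and 37.8% of all genes (median -0.20, and -0.09 with median-ratio scaling). Pdx1, which drives insulin transcription and beta cell identity, was at 75.2, 68.2 and 68.2 TPM and at 30.1, 38.1 and 32.9 TPM. Nkx6-1 was at 6.36, 6.12 and 6.66 and 1.98, 2.94 and 2.45 TPM and Nkx2-2 at 7.5, 6.2 and 6.54 and 2.88, 3.74 and 2.62 TPM. For all 3 the EGCG libraries were below the overexpression libraries and also below control, which held 44.1, 43.5 and 39.4, 5.34, 4.67 and 4.19 and 5.28, 5.11 and 4.48 TPM in that order. The differences were -1.05 ± 0.0882, -1.10 ± 0.102 and -0.93 ± 0.112 (SE). Mnx1 and Neurod1 fell as well, with differences of -0.36 and -0.32. Mafa, a late activator of insulin transcription, was at 38.95, 38.6 and 38.5 and 30.9, 38.4 and 30.5 TPM and was not called (limma, Benjamini-Hochberg adjusted p = 0.0625), nor was Foxa2. Without EGCG replicate 2 both were called lower, with differences of -0.32 and -0.29. Foxo1, tested only through EGCG, rose by 0.32.

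Of 10 prohormone processing genes 2 rose and 4 fell, near the 19.8% and 37.8% of all genes, and 3 and 3 with median-ratio scaling. Pcsk1, the convertase PC1/3, fell from 85.6, 88.3 and 92.1 to 58.9, 56.3 and 59.7 TPM and Pam, which amidates peptide hormones, rose from 67.4, 63.8 and 67.4 to 92.9, 86.96 and 89.8 TPM, above control at 71.6, 71.6 and 73.2 TPM; Cpe was not called. Of 22 granule and exocytosis genes 2 rose and 10 fell, and 4 and 8 with median-ratio scaling, with a median of -0.12 that turned to 0.01 with quantile normalization and 0.03 when rescaled to nuclear protein-coding genes. Unc13a, which primes vesicles, rose by 0.81, Cadps, a priming factor of dense-core granules, fell by 0.74 and Syt13 fell by 0.73. Of 20 channel genes 5 rose and 6 fell, and 7 and 4 when rescaled to nuclear protein-coding genes. Kcnj11, the pore of the KATP channel, went from 12.5, 12.2 and 13.6 to 7.18, 6.62 and 6.77 TPM and Atp2a2, the SERCA2 calcium pump, from 238, 236 and 239.8 to 101, 123 and 105 TPM. Kcnk16, the TALK-1 potassium channel of islets, had the largest fall of the channels, 12.7, 12.3 and 11.1 to 1.91, 2.19 and 1.9 TPM, a difference of -2.12 ± 0.0698 (SE). Kcnma1 rose by 0.72, and Itpr1 and Stim1 were not called. The incretin receptors moved apart: Glp1r fell from 7.99, 6.75 and 6.81 to 3.06, 3.39 and 3.19 TPM and Gipr rose from 1.59, 1.93 and 2.1 to 5.74, 5.33 and 6.28 TPM, in each case without overlap. In the cAMP pathway the catalytic subunit Prkacb fell by 0.81 and the regulatory subunit Prkar1a fell by 0.53, and of 20 genes 5 rose and 9 fell, and 5 and 5 when rescaled to nuclear protein-coding genes.

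Nuclear receptors other than Nr4a1 moved too: of 21 tested, Nr4a1 included, 9 rose and 4 fell (median 0.13). Thra, a thyroid hormone receptor, rose from 4.28, 3.96 and 4.29 to 13.1, 13.6 and 14.2 TPM and Rora, a receptor of the circadian clock, from 3.03, 2.82 and 3.13 to 6.73, 7.13 and 7.91 TPM. Nr1d1, a repressor of the clock, rose by 0.92 from a low level and Nr1h2, the oxysterol receptor LXR beta, by 0.73. Esrrg, a regulator of oxidative genes, fell from 6.41, 5.34 and 5.94 to 2.16, 2.31 and 2.37 TPM and Vdr, the vitamin D receptor, from 27.5, 27.6 and 28.1 to 13.9, 16.4 and 14.2 TPM. Each of these genes was separated between the groups, which the filter fixed for Nr1d1, tested only through EGCG. Nr3c1 and Nr2c2 were not called. The 10 genes tied to NR4A1 in beta cells by earlier work hold 8 that fell and Slc2a2, which rose (median -0.63). Besides Pdx1 and Nkx6-1 they include Ube2c, Idh3g, the proliferation factor Foxm1, which fell from 13.98, 13.4 and 14.7 to 8.74, 8.87 and 9.18 TPM, and E2f1, which was not called at 9.27, 9.22 and 8.77 and 7.91, 9.06 and 9.23 TPM.

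Of 14 tested genes whose proteins have been reported to bind EGCG 2 rose and 8 fell (median -0.27), with Dyrk1a, a kinase that restrains beta cell division, at 15.98, 15.04 and 15.96 and 11.3, 11.5 and 11.8 TPM. Rpsa, which also encodes a laminin receptor known to bind EGCG, was not called at 341, 318 and 327 and 298, 307 and 329 TPM. Only 4 of 13 listed genes of catechin metabolism were tested. Among them the exporter Abcc1 rose from 7, 6.63 and 7.14 to 11.3, 10.01 and 11.5 TPM and the glutathione transferase Gstm1 by 0.49. Gsta4, of the same family, was called higher by 0.19, but its adjusted p of 0.0375 (limma, Benjamini-Hochberg) passed 0.05 without any one of 5 of the 6 libraries, the exception being EGCG replicate 2. Of 21 chromatin modifiers 2 rose and 7 fell, 5 and 4 with median-ratio scaling and 6 and 1 when rescaled to nuclear protein-coding genes, with a median of -0.06, or 0.03 with median-ratio scaling. The histone demethylase Kdm5b rose from 2.96, 2.23 and 2.15 to 5.59, 5.17 and 5.23 TPM, Uhrf1, the partner of Dnmt1, fell from 29.8, 26.4 and 29.4 to 16.3, 18.3 and 18.5 TPM, and Hdac2 and Hdac3 were not called.

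The strongest fall of all protein-coding genes named here was in Il4, a cytokine of T helper cells, at 15.6, 16.1 and 13.2 TPM with overexpression and 0.8, 1.16 and 0.81 TPM with EGCG, with control at 0.48, 0.38 and 0.93 TPM. The difference was -3.06 ± 0.101 (SE; limma, Benjamini-Hochberg adjusted p = 3.45e-06). Other secreted factors fell with it. Nms, the peptide neuromedin S, was at 9.15, 11 and 11.6 and 1.16, 1.29 and 1.72 TPM, Csf1, the macrophage growth factor, at 27.5, 26.9 and 28.1 and 7.88, 9.78 and 7.48 TPM, and Plat, tissue plasminogen activator, at 20.9, 21.5 and 19.6 and 4.44, 5.85 and 4.2 TPM. The chemokine Cxcl10 went from 3.53, 3.89 and 4.23 to 0.63, 0.77 and 0.82 TPM and Spp1 from 73.4, 69.2 and 71.4 to 29.1, 29.4 and 29.4 TPM. All of these were lower in every EGCG library. Of 10 tested cytokines and growth factors 6 fell and 3 rose (median -1.30), and Igf2, at 122, 111 and 112 and 109.9, 112 and 125 TPM, was not called, but was called higher with quantile normalization (by 0.21).

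The rest of the 15 lowest came from several functions. Slc2a5, the fructose transporter GLUT5, was at 37.9, 37.4 and 37.4 TPM and at 7.42, 9.63 and 7.47 TPM. Pcp4, a modulator of calmodulin, was at 18.6, 18.7 and 20.9 and 4.55, 4.72 and 5.29 TPM, the vitamin D binding protein Gc at 11.4, 7.86 and 7.26 and 1.97, 1.62 and 2.21 TPM, and Etv1, an ETS transcription factor, at 12.6, 10.8 and 12.9 and 2.81, 4.02 and 3.35 TPM. None of the 4 overlapped between groups, which the rule for the 15 lowest required. The 3 histone genes Hist2h2aa1, Hist1h2an and Hist1h2ag were among the 15 as well. Hist2h2aa1 was at 188, 219 and 207 TPM and 91.7, 123 and 25.1 TPM, with the lowest value in EGCG replicate 3, and its adjusted p of 0.029 (limma, Benjamini-Hochberg) rose to as much as 0.109 among the alternatives, passing 0.05 without any one overexpression library; that of Hist1h2ag went from 0.0119 to 0.0557. Histone genes come in near-identical copies, so the authors' estimation could split their reads and these values are uncertain.

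**Figure D5:**
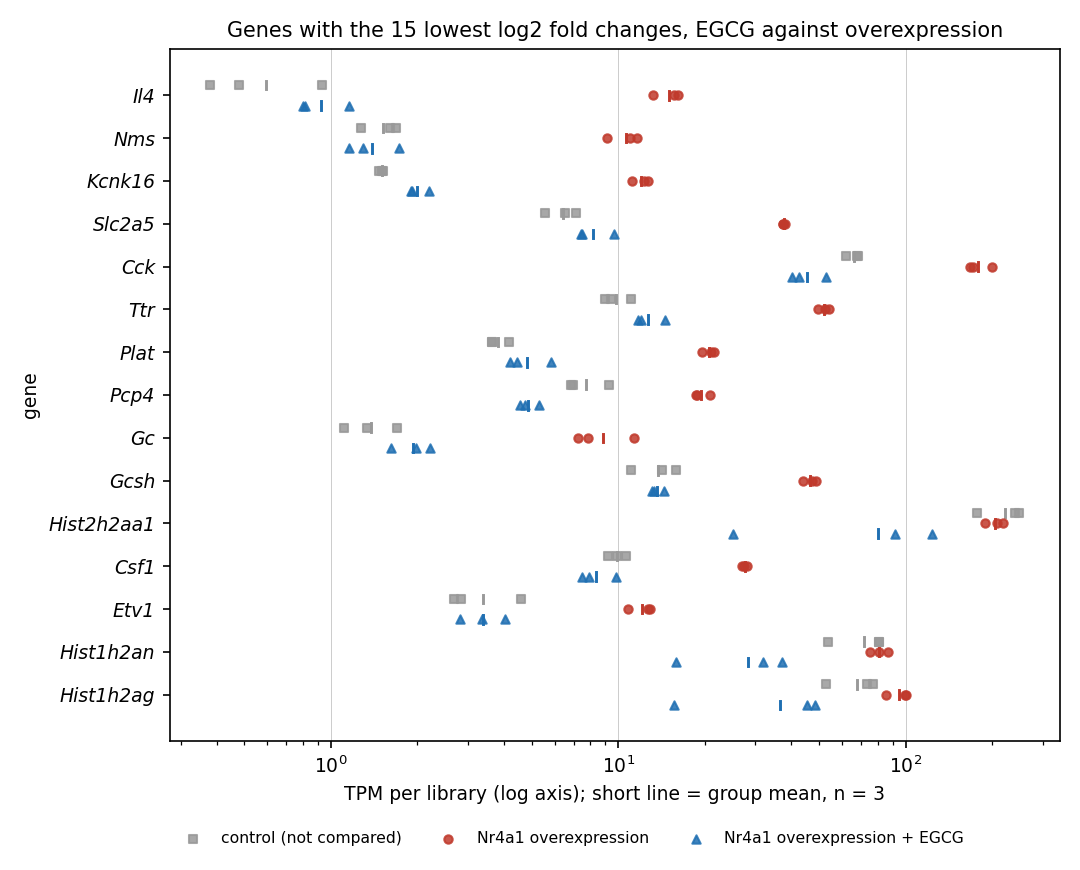
TPM in each library (horizontal log axis) of the 15 genes with the lowest log2 differences among protein-coding genes averaging at least 5 TPM; points are libraries, short lines are means of 3 libraries, and control libraries are shown as background. Only genes without overlap between the groups were eligible, so in all 15 the EGCG libraries lie to the left of the overexpression libraries. Il4 had 13.2 to 16.1 TPM with overexpression against 0.8 to 1.16 TPM with EGCG. EGCG replicate 3 stands apart in the histone genes, at 25.1 TPM in Hist2h2aa1.

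By class of gene, 2078 of 10634 protein-coding genes rose and 4195 fell (median -0.10), while 42 of 148 long intergenic RNAs rose and 32 fell (median 0.05). Of 96 small nucleolar RNAs, which guide the modification of ribosomal RNA, 7 rose and 20 fell (median -0.35). Snora78, of the H/ACA kind, was at 236, 313 and 375 TPM with overexpression and 167, 177 and 89.2 TPM with EGCG, with a wide spread in both groups but no overlap. Snora9 and Snora64 fell, with differences of -1.94 ± 0.637 and -0.94 ± 0.311 (SE). Of 20 small nuclear RNAs 4 rose and 4 fell. Rnu12 and Rnu11, RNAs of the minor spliceosome, rose: Rnu12 was at 295, 239 and 254 TPM and at 1667, 668 and 1997 TPM, and Rnu11 at 20.1, 0.95 and 63.9 and 199.7, 222 and 144 TPM. For Rnu11 the adjusted p of 0.0221 (limma, Benjamini-Hochberg) reached 0.0893 among the alternatives. Snora9 and Snora64 likewise reached 0.12 and 0.365, the latter in the fit that also held the control libraries. Rn7s6, a copy of the signal recognition particle RNA, was called higher by 0.52, with an adjusted p of up to 0.3 among the alternatives.

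At the level of single transcripts, 8329 of 21491 were called (38.8%), 2731 higher and 5598 lower. In 33 of 735 genes with at least 2 protein-coding transcripts of at least 5 TPM, a pair of transcripts was called in opposite directions, and in 13 of the 33 the gene's sum was not called. The shares between transcripts of a gene are estimates of the authors' program, so these values are less certain than sums. Aplp2, a relative of the amyloid precursor, had Aplp2-201 at 17.6, 18.7 and 17.9 TPM with overexpression and 23.97, 24.2 and 25.1 TPM with EGCG, and Aplp2-209 at 14.9, 12.8 and 13.4 TPM and at 8.41, 8.18 and 9.10 TPM. Both were apart between groups, in opposite senses, and the sum of Aplp2 had a difference of -0.03. In Rasgrf1, an exchange factor for Ras, Rasgrf1-202 rose by 1.18 and Rasgrf1-203 fell by 0.68. In Nasp, a histone chaperone, Nasp-201 rose from 9.36, 8.84 and 7.92 to 21.9, 19.4 and 26.3 TPM and Nasp-203 fell from 12.2, 11.0 and 8.73 to 2.41, 0.36 and 0.85 TPM. Ntrk2, Eif4a2 and Rnps1, which encode a neurotrophin receptor, a translation factor and a splicing factor, had such pairs as well: 0.61 and -0.42 for Ntrk2, 1.37 and -0.42 for Eif4a2, and 0.43 and -0.94 for Rnps1.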

How the data were processed

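RNA was extracted with the RNeasy mini kit and libraries were made with the TruSeq Stranded Total RNA kit, per the labels' protocols. The submitters' processing notes list RSEM 1.2.31, STAR 2.7.1a, cutadapt 2.8, FastQC 0.11.9 and bcl2fastq 2.20, with genome build GRCm39. The authors deposited 1 table of TPM for 142435 Ensembl transcripts in 9 libraries. TPM keeps no depth, so no interval that needs counts is given. TPM was summed per gene through GENCODE M21, a GRCm38 annotation used for names and classes only, which matched 138346 identifiers (97.1%). Genes or transcripts with at least 1 TPM in at least 3 of the 6 libraries were tested with limma 3.58.1 in R 4.3.3 (variance trend, two-sided, Benjamini-Hochberg threshold 0.05) on log2(TPM + 1), and the method was tested on simulated data. Python 3.11.15, pandas 2.3.3 and matplotlib 3.10.9 were used for the rest. The 17 alternatives changed the pseudocount, the filter, the scaling, the libraries, the variance trend, the minimum fold or the replicate block.

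Genes were named by rule. The rule takes Nr4a1, the 15 highest and 15 lowest called protein-coding genes averaging at least 5 TPM, with no overlap and no predicted-gene symbol, the 3 highest and 3 lowest small RNAs, and 6 genes with opposite transcripts. Separation of the groups in the 15 highest and 15 lowest is thus a condition of the rule and not a result. From each of 56 gene lists it takes the called members of smallest adjusted p, up to 6, and up to 2 uncalled ones of highest TPM. Other list members that are named, among them Arnt, Hif1an, Egln2, Ldhb, Dlat, Dld, Pdhx, Pdha1, Mpc2, Pfkfb4 and Ddit3, were chosen after their values were seen. The members and lists were chosen with earlier results of these data known. Some genes that the rule names are not reported here, although they count among the members of their lists.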

Additional observations from a re-analysis of the deposited data

How the results depend on the processing

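The number of genes called was 2379 when at least 1.2-fold was required (842 higher, 1537 lower) and 6240 with a replicate block (2159 higher, 4081 lower). A filter at 5 TPM left 7373 genes, of which 1303 were higher, and rescaling to nuclear protein-coding genes gave 3587 higher and 2861 lower. Leaving out 1 library gave 5811 to 6503 genes. Of transcripts, 2696 were called with the 1.2-fold minimum (918 higher, 1778 lower) and 4501 with the 5 TPM filter (1130 higher, 3371 lower); rescaling gave 3669 lower, the replicate block 6398 in all, and leaving out 1 library 6142 to 7587. Same-numbered deviations of the 2 groups correlated at -0.0648, 0.111 and 0.00859, and those of unlike numbers at -0.144 to 0.132. With 3 libraries per group these values show no pairing by replicate number but cannot tell whether the cultures were paired.

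Directions of 9 uncalled or weakly called genes reversed with quantile normalization: Mpc1 to 0.148, Fkbp8 to 0.174, Got2 to 0.174, Atp5g2 to 0.194, Paics to 0.145, Atp6ap1 to 0.162, Ctsd to 0.21, Pcsk2 to 0.0036 and Dnmt1 to 0.00528. Rescaling to nuclear protein-coding genes reversed Atp5g2 (0.143) and Ctsd (0.144). The cause was not tested.

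Some list medians changed sign. With the 5 TPM filter, which leaves fewer genes, mitophagy had -0.0123, the BCL2 family -0.145 and ion channels -0.0894. Rescaling gave 0.0863 for genes of the mitochondrial genome, 0.0293 for cholesterol synthesis, 0.00252 for NRF2 targets, 0.0281 for autophagy and lysosome, 0.0254 for the insulin granule and 0.0689 for chromatin modifiers. Quantile normalization gave 0.0599 for autophagy and lysosome, 0.0149 for the granule and 0.0389 for chromatin modifiers. Median-ratio scaling gave 0.0492 for the mitochondrial genome and 0.0349 for chromatin modifiers. Leaving out 1 library gave -0.159 to 0.00857 for the mitochondrial genome (positive without EGCG replicate 1), -0.0171 to 0.0112 for cytosolic ribosomal proteins (negative without overexpression replicate 2 or EGCG replicate 3) and -0.0214 to 0.0532 for the BCL2 family (negative without EGCG replicate 3). The counts of members called higher ranged from 22 to 23 for hypoxia-inducible genes and from 18 to 19 for glycolysis over all 17 alternatives. The counts of members called lower moved more, most of all with the 1.2-fold minimum, which left 4 of 25 for complex I, 11 of 38 for mitochondrial ribosomal proteins, 16 of 35 for the proteasome, 11 of 25 for the translocon, 14 of 31 for ribosome biogenesis, 19 of 33 for DNA replication, 17 of 30 for mitosis, 15 of 23 for ER chaperones and 9 of 19 for heat shock chaperones. Of 390 named genes, 44 lost their call with that minimum and 12 with no filter on low values. With median-ratio scaling 8 lost and 21 gained a call, and with the replicate block 4 and 1. Apart from genes that reversed, 9 lost and 24 gained a call with quantile normalization, and 11 and 28 with rescaling. Of the 9 reversed with quantile normalization, Pcsk2 and Dnmt1 also lost their call and the others gained one. Atp5g2 and Ctsd, reversed with rescaling, gained one there too. Beside those already given, Lig1, Pold2, Slc11a2, Stim1 and Nr3c1 were called higher with all 3 of these scalings, Cela1 with median-ratio scaling and rescaling, and Hdac2 with quantile normalization and rescaling. Of genes given as not called, Sdhc, Trib3, Slc1a4 and Slc43a2 were called lower, and Slc11a2 higher, without EGCG replicate 2. Without EGCG replicate 3 Uqcrb, Nusap1, Cenpf, Srpr, Nupr1, Nr2c2, Itgb1 and Hdac3 were called lower. Cenpf was also called without overexpression replicate 2, Slc11a2 without overexpression replicate 3 and Pold2 without EGCG replicate 1. Depth is unknown, so what it limits cannot be given.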
